A study of Mus musculus with 13 samples.

Results

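Eosinophils of the mouse lung were sought in a pooled single-cell RNA table by the transcripts that mark them, chiefly Ccr3, the receptor for the eotaxin chemokines. The selection took 166 barcodes out of 20856 barcodes of libraries 1, 2, 3 and 7 in which mitochondrial genes made up at most 10% of the UMIs (unique molecular identifiers, each standing for 1 captured RNA molecule), and out of 37344 barcodes in all 7 libraries. A barcode was taken with at least 1 UMI of Ccr3, or with at least 2 UMIs summed over Prg2 (eosinophil major basic protein), Alox15 (an arachidonate lipoxygenase) and Siglecf (a sialic acid-binding surface lectin). It also had to hold 0 UMIs over 10 genes of other cells (C1qa, C1qb, Marco, Fabp1, Krt79, Mcpt8, Ms4a2, Cd3e, Cd79a and Jchain) and fewer than 3000 UMIs in all. Because these values chose the cells, the levels of the rule's own genes are given only as a description.

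The study asked how lung eosinophils of emphysema differ from those of asthma. Whole lungs of C57BL/6 mice were dissociated with protease, and the single-cell samples were labelled Asthma (ovalbumin sensitisation, then ovalbumin challenge), PPE-emphysema (repeated weekly intratracheal instillations of porcine pancreatic elastase, PPE, with death shortly after the last), PPE-recovery (a single PPE instillation followed by a long interval) and Control (instilled on the weekly schedule, the fluid not named). Each group was 1 mouse, for which no age or sex was stated. The barcodes carry a library number from 1 to 7 and no group, so no library could be given a condition. All comparisons are therefore between cell types or between numbered libraries, without replicates and without p-values. Libraries 1, 2, 3 and 7 are called lung libraries because the lung epithelial transcripts Scgb1a1 and Sftpc reached 5852 and 2653 or more CPM in each (counts per 1000000, here UMIs of a gene per 1000000 UMIs of the same cells), against 0.572 and 0.0646 or less in libraries 4, 5 and 6. Intervals are exact at 95% and cover counting error only.

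Eosinophils are granulocytes of type 2 immunity. They mature in the bone marrow under interleukin 5 and the transcription factors GATA1 and C/EBP epsilon, enter tissue along eotaxin gradients through CCR3, and carry granules packed with major basic protein, eosinophil peroxidase and ribonucleases. In the lung they are known for releasing interleukin 4, lipid mediators and granule proteins, and for lining the airways in allergy. They hold little RNA and much ribonuclease, and are easily lost in droplet methods.

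The promoters of the 2 surface genes that define these cells are shown because GATA factors act on eosinophil genes through paired and single GATA sites. Each run covers 250 bases before to 50 bases after the start of the RefSeq gene on GRCm38.p6, 5′ to 3′ along the gene, and capitals mark a match to the letters AGATAA or TGATAA, searched on both strands (TTATCT or TTATCA on the other). Ccr3 lies on the plus strand at chr9:124021721-124022020, with 1 match at base 221 of the run. Siglecf lies on the plus strand at chr7:43351091-43351390, with 1 match at base 262.
Ccr3 promoter: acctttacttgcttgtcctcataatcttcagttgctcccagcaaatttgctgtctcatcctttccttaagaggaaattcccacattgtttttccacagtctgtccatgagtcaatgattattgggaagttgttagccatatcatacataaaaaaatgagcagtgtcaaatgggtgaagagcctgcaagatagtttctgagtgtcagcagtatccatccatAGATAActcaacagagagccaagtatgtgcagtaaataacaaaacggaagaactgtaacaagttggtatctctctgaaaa
Siglecf promoter: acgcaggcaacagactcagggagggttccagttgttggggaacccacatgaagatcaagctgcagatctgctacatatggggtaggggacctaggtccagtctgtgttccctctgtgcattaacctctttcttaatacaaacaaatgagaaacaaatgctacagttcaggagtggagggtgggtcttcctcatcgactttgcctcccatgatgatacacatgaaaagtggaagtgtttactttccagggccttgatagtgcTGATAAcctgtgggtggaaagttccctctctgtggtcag
A match occurred in 6115 of 32851 promoters of this length, or 18.6%. The promoters of Epx, the eosinophil peroxidase, and Ear6, a ribonuclease, held none. Prg2 and Alox15, also genes of the rule, had no promoter in the RefSeq table and could not be shown. Of the 20 genes named below as highest against all other barcodes, 16 had a promoter in the RefSeq table and 5 of these held a match (Il4, Serpinb2, P2rx1, Il1rl1 and Cyp4f18).

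The selected cells were few and shallow. Library 1 gave 24, library 2 gave 9, library 3 gave 8 and library 7 gave 125, which was 75.3% (68.0 to 81.7) of them. As a share of the barcodes under the mitochondrial limit they made up 0.5% (0.321 to 0.743) in library 1, 0.118% (0.0540 to 0.224) in library 2, 0.156% (0.0674 to 0.307) in library 3 and 3.79% (3.16 to 4.50) in library 7. Library 7 thus stood above the other 3 with no overlap of the intervals, and library 1 above libraries 2 and 3. These shares rest on the upper UMI limit, and with no such limit library 7 held 55.1% of 305 cells. Libraries 4, 5 and 6 gave 0 because the selection was limited to libraries 1, 2, 3 and 7. Their lowest barcodes also held 5735, 3439 and 3946 UMIs, above the upper limit of the rule, so none of their cells could have qualified. The lung libraries held 50552002, 79439569, 47364075 and 34606626 UMIs in the same order. The 166 cells together held 161164 UMIs, and all of them enter the values that follow unless a smaller set is named.

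The median selected cell held 692.5 UMIs from 463 genes, with a range of 362 to 2999 UMIs, and 116 of the 166 held under 1000. By library the median was 574.5, 2609, 2085 and 683 UMIs in libraries 1, 2, 3 and 7, so the few cells of libraries 2 and 3 were about as deep as neutrophils (median 2406) while those of libraries 1 and 7 were not. The median mitochondrial share followed the same split, at 5.22%, 1.58%, 0.489% and 4.26%, against 0.468% in neutrophils, 2.76% in basophils or mast cells and 5.03% in alveolar macrophages. A single barcode sequence of the 166 occurred in another library, among 153 sequences that libraries shared, and no 2 selected cells shared one.

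**Figure D1:**
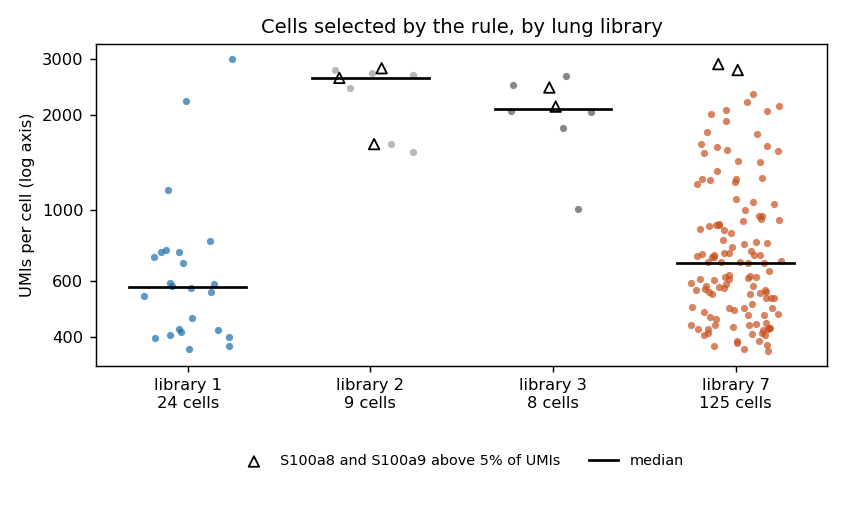
UMIs per selected cell (vertical axis, log scale) by library number (horizontal axis); each point is 1 cell, triangles are cells with over 5% of their UMIs from S100a8 and S100a9, and bars are medians. The 24 cells of library 1 and 125 of library 7 had medians of 574.5 and 683 UMIs, and the 17 cells of libraries 2 and 3 had medians of 2609 and 2085.

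Ccr3 brought in 115 cells, and the sum of Prg2, Alox15 and Siglecf brought in the other 51. Both routes were met by 41 cells. A second rule gene beside Ccr3 was seen in 63 cells, while 34 cells entered on exactly 1 UMI of Ccr3 with none of the other 3 genes. Prg2 was seen in 52 cells, Alox15 in 73 and Siglecf in 44, and 9 cells entered on Siglecf alone, of which 4 were in library 2 and 3 in library 3. Just outside the limits stood 91 barcodes with a single UMI over Prg2, Alox15 and Siglecf and no Ccr3 (median 1861 UMIs), 11 barcodes with 1 UMI of an excluded gene, and 139 barcodes kept out by the upper UMI limit alone (median 14965 UMIs), of which 13 held under 4000. Just inside that limit, 22 cells held 2000 UMIs or more.

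The label was checked per library against genes that the rule did not use, and libraries 2 and 3 went against it. The rule's own genes come first, as a description that does not bear on that check. Levels are given in CPM, which for 3′ tags does not scale with transcript length. Ccr3 stood at 1230.5 in library 1, 241 in library 2, 241 in library 3 and 1453 in library 7. Prg2 stood at 839 in library 1 and 679 in library 7 with 0 UMIs in libraries 2 and 3, where 3 UMIs would be 145 and 181. Alox15 stood at 1007 in library 1, 0 in library 2, 60.3 in library 3 and 1169.8 in library 7, and Siglecf at 615 in library 1, 435 in library 2, 483 in library 3 and 358 in library 7. Prg2 or Alox15 was seen in 14 of 24 and 83 of 125 cells of libraries 1 and 7, but in 0 of 9 and 1 of 8 cells of libraries 2 and 3. S100a8, an alarmin of neutrophils, stood at 895 in library 1, 23858 in library 2, 11705 in library 3 and 1613 in library 7, and its partner S100a9 at 4083 in library 1, 28929 in library 2, 13153 in library 3 and 2773 in library 7. Cells with 0 UMIs of both made up 20 of 24 in library 1, 1 of 9 in library 2, 1 of 8 in library 3 and 92 of 125 in library 7. For both genes the levels in libraries 2 and 3 lay above those of libraries 1 and 7 with no overlap of intervals, while Il4, an eosinophil cytokine outside the rule, was at 0 UMIs in libraries 2 and 3. Single cells of library 1 also went against the label. A cell with 2201 UMIs held all 16 S100a8 and 66 of the 73 S100a9 UMIs of library 1's selected cells, so it set both levels of that library. Another held 2999 UMIs, or 16.8% of all UMIs of library 1's selected cells, with 17 UMIs of Gata2, 9 of Hdc (histidine decarboxylase), 4 of Cd200r3 and 2 of Fcer1a, all on the basophil or mast cell list, beside 1 UMI of Ccr3, 1 of Il4 and 0 of Prg2, Alox15 and Siglecf. Libraries 2 and 3, the cell with the Gata2 UMIs and the cells with neutrophil transcripts were set apart after the data were seen, and some results are also given without them. The name eosinophil is used below as shorthand for all 149 cells of libraries 1 and 7, the Gata2 cell and the cells of both libraries with neutrophil transcripts included.

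**Figure D2:**
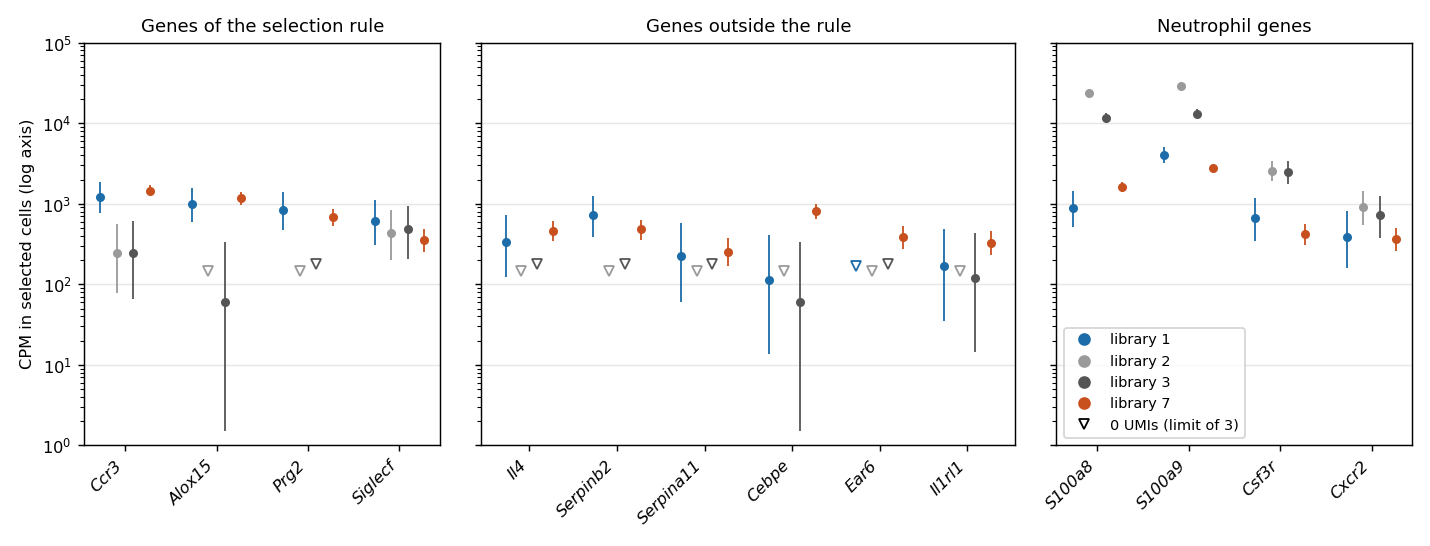
CPM in the selected cells of each library (vertical axis, log scale) for the genes of the rule, for 6 genes outside it and for 4 neutrophil genes; points are levels, lines exact 95% intervals of counting error, and open triangles mark 0 UMIs, drawn at 3 UMIs. Prg2 was at 0 UMIs in libraries 2 and 3, where S100a8 reached 23858 and 11705 against 895 and 1613 in libraries 1 and 7.

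Neutrophil transcripts differed between the libraries of the selected cells. The 12-gene neutrophil list summed to 14878, 61142, 32279.5 and 9905 CPM in libraries 1, 2, 3 and 7, with 9 of its 12 genes detected, S100a9 the most abundant, and the granule genes Camp, Ngp and Ltf at 0. In neutrophils it summed to 91289.9. Over 5% of the UMIs of a cell came from S100a8 and S100a9 in 3 cells of library 2, 2 of library 3 and 2 of library 7. A set of 106 cells held no UMI of S100a8, S100a9, Csf3r, Cxcr2 or Gata2, 19 of them from library 1 and 85 from library 7. These 106 cells held Il4 at 529, Cebpe at 722 and Retnla at 5703 CPM, each above its level over all 166 cells. Ccr3 stood at 1561 there, but it is a gene of the rule, so this level is a description only. Retnlg, a resistin-like gene that neutrophils carry at 5061 and by which they were chosen here, stood at 5238 in those 106 cells. The 34 cells taken on 1 UMI of Ccr3 alone held S100a9 at 19811 and Il4 at 98.1, against 325 and 415 in the 63 cells with Ccr3 and another rule gene. Of those 34 cells, 13 held any S100a9 UMI and 21 held none, and 5 cells, 2 of library 2, 1 of library 3 and 2 of library 7, held most of the S100a8 and S100a9 UMIs. Il4 rested there on 4 UMIs in 4 cells.

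Granule proteins outside the rule were thinly captured. Of 8 such genes 4 were seen (Ear6, Ear1, Ear2 and Epx), and Prg3, Ear10, Rnase2a and Rnase2b were at 0 UMIs in all 166 cells, where 3 UMIs would be 18.6 CPM. Ear6, a ribonuclease of eosinophil granules, was seen in 19 cells, all of library 7, at 387 (278 to 525) there, while 3 UMIs in library 1 would be 168. Neutrophils and basophils or mast cells held 0 UMIs of it and alveolar macrophages 6.93. Ear1 stood at 168 and Ear2 at 112, both below alveolar macrophages (736 and 2189). The 3 ribonucleases are close copies of each other, and how reads that match more than 1 of them were counted was not tested. Epx gave 2 UMIs and the interleukin 5 receptor chain Il5ra 3, while the chemoattractant receptors Ptgdr2 and Hrh4 gave 0. At least 1 UMI of any of 10 further eosinophil genes (Il5ra, Epx, Prg3, Ear6, Hrh4, Ptgdr2, Cd101, Siglece, Csf2rb and Csf2rb2, not all restricted to eosinophils) was seen in 91 of the 166 cells, or 54.8% (46.9 to 62.5). With every cell thinned at random to 400 UMIs this share was 38.4% (30.3 to 47.1) in eosinophils of libraries 1 and 7 and 27.3% (24.3 to 30.5) in neutrophils, which share Csf2rb and Siglece, with intervals that overlap slightly. It was 55.7% in basophils or mast cells, which carry Csf2rb, and 2.61% in B cells.

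Against all 20690 other barcodes of the lung libraries, 488 of 17189 genes were at least 4-fold higher in the selected cells (2.84%) and 373 at least 4-fold lower (2.17%). The genes that stood highest included Il4 and Cebpe, which the rule had not used. Among genes with at least 20 UMIs in the selected cells and found in at least 2 libraries, the order by ratio was Serpina11, Il4, Cebpe, Serpinb2, P2rx1, 9830107B12Rik, Gapt, F5, Rflnb, Il1rn, Il1rl1, Ckap4, Lilra6, Cyp4f18, Retnlg, Cd24a, Treml2, Sema7a, Gadd45a and Rab44. Il4, the cytokine of type 2 immunity, stood at 336 in library 1, 0 in library 2, 0 in library 3 and 462 in library 7, so its UMIs were found in libraries 1 and 7 and at 0 in the other 2, in 25 cells. Its gene lies at chr11:53602982-53618669 on the minus strand (GRCm38, as are the positions that follow). Its overall level of 341 (257 to 444) set against 3.23 in neutrophils was 105-fold (45.5 to 299.9) higher, and 2.53-fold (1.71 to 3.76) higher than the 135 of basophils or mast cells. A few cells weigh on these ratios, since 5 cells held 57.1% of the 49 Il4 UMIs of library 7, with 15 in a single cell. Il13 gave 4 UMIs, all in library 7, and Il5 gave 0. Cebpe, the C/EBP epsilon gene of granulocyte maturation, stood at 112 in library 1, 0 in library 2, 60.3 in library 3 and 811 in library 7 (chr14:54710360-54712174 on the minus strand). It was 18.97-fold (13.4 to 27.1) higher than in neutrophils and at 0 UMIs in basophils or mast cells. Serpina11, a serine protease inhibitor of the antitrypsin family, stood at 224 in library 1, 0 in library 2, 0 in library 3 and 255 in library 7, and Serpinb2, the plasminogen activator inhibitor of leukocytes, at 727 in library 1, 0 in library 2, 0 in library 3 and 481 in library 7. Each serpin was at 0 UMIs in libraries 2 and 3, and its intervals in libraries 1 and 7 overlapped.

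Il1rl1, the interleukin 33 receptor, stood at 168 in library 1, 0 in library 2, 121 in library 3 and 330.2 in library 7 and was 28.8-fold (15.8 to 55.03) higher than in neutrophils, with 182 in basophils or mast cells. P2rx1, an ATP-gated channel, stood at 179.9 overall and 255 in library 7. F5, coagulation factor V, stood at 422 and Sema7a, a membrane semaphorin, at 354. Il1rn, the interleukin 1 receptor antagonist, was among the most widely seen, in 120 cells, at 2685 in library 1, 579.5 in library 2, 724 in library 3 and 4490.4 in library 7. It exceeded neutrophils 3.51-fold (3.19 to 3.87) and alveolar macrophages 18.6-fold (16.99 to 20.3). Cd24a, a heavily glycosylated surface protein used to sort eosinophils, was seen in 140 cells at 3803 in library 1, 531 in library 2, 422 in library 3 and 4943 in library 7, and exceeded neutrophils 5.54-fold (5.02 to 6.11). Among the remaining genes, Gapt (a signalling adaptor) stood at 763, Rflnb at 1098, Ckap4 at 1160.3, Cyp4f18 (a leukotriene-metabolising cytochrome) at 2358, Lilra6 at 254, Treml2 at 261, Gadd45a at 627, Rab44 at 372 and 9830107B12Rik at 248. Retnlg, at 4226, was no higher than in neutrophils (5061).

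Retnla, the resistin-like molecule alpha made under interleukin 4 and 13, was uneven between cells. It was seen in 58 of the 166 cells, with up to 105 UMIs in a single cell, and stood at 2797 in library 1, 0 in library 2, 0 in library 3 and 5641 in library 7. The level in neutrophils was 42.1, in basophils or mast cells 24.96 and in alveolar macrophages 35.2, so that the selected cells exceeded neutrophils 95.6-fold (75.5 to 123). The 5 cells with the most Retnla held 43.98% of its UMIs in library 7 and 92% in library 1. Of the 14 type 2 and survival cytokine genes, 9 were detected and Il5, Il10, Tnfsf13, Csf2 and Lif were at 0.

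Thinned to 400 UMIs, shares of cells with a UMI could be set beside those of cell types of other depth. This kept 138 of the 149 eosinophils of libraries 1 and 7 (median 623 UMIs before thinning), 830 of 835 neutrophils, all 70 basophils or mast cells, alveolar macrophages (median 14457) and B cells (median 4347), with a single random draw per cell. Cd24a was seen in 78.99% (71.2 to 85.5) of eosinophils, 19.3% of neutrophils and 8.93% of B cells. Il1rn was seen in 64.5% (55.9 to 72.4) against 19.9% and 0.130%. Retnla was seen in 35.5% (27.6 to 44.1) against 1.93% and 0.587%. Cebpe was seen in 25.4% (18.3 to 33.5) against 1.57% and 0%. These shares lay above those of neutrophils and B cells with no overlap of intervals. Il4 was seen in 7.97% (4.05 to 13.8), Serpina11 in 9.42% (5.11 to 15.6), Il1rl1 in 7.97% (4.05 to 13.8) and Ear6 in 7.25% (3.53 to 12.9) of eosinophils, each under 1% in neutrophils, alveolar macrophages and B cells. Basophils or mast cells held an Il4 UMI in 10% (4.12 to 19.5) and an Il1rl1 UMI in 5.71% (1.58 to 13.99) of cells, with intervals that overlap those of eosinophils, and no UMI of Serpina11, Ear6, Cd24a, Il1rn, Retnla or Cebpe, where 0 of 70 allows up to 5.13%. In alveolar macrophages Cd24a reached 7.40%, Il1rn 7.91%, Retnla 0.659% and Cebpe 0.101%. S100a8 went the other way, at 5.80% (2.54 to 11.1) of eosinophils and 90.4% of neutrophils. Siglece, an inhibitory lectin, was seen in 16.7% (10.9 to 23.95) of eosinophils and 7.83% (6.10 to 9.87) of neutrophils. Before thinning, Il4 was seen in 16.8% of eosinophils and 0.599% of neutrophils, and S100a8 in 8.05% and 94.1%.

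**Figure D3:**
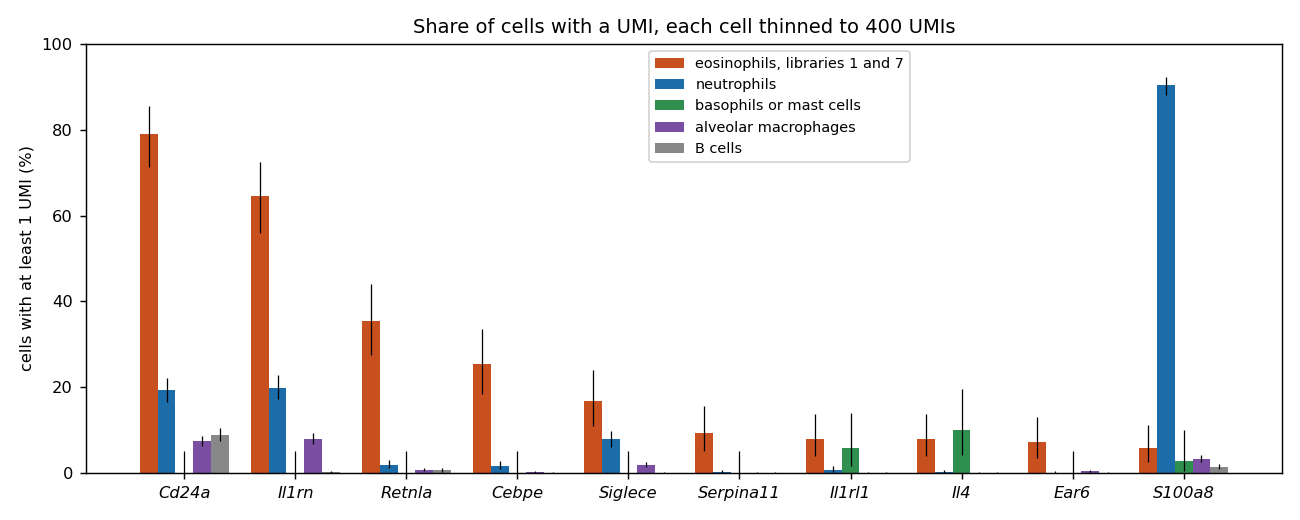
Percent of cells with at least 1 UMI of a gene (vertical axis) after every cell was thinned to 400 UMIs, for eosinophils of libraries 1 and 7 and 4 other cell types; lines are exact 95% binomial intervals. Cd24a reached 78.99% of eosinophils and 19.3% of neutrophils, while S100a8 reached 5.80% and 90.4%.

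Against the 835 neutrophils of the same libraries, taken by at least 2 UMIs over Retnlg, Csf3r and Cxcr2 with none of the rule's genes and the same UMI limit, 494 of 6036 genes were at least 4-fold higher in the selected cells (8.18%) and 52 at least 4-fold lower (0.861%). A gene was compared with at least 20 UMIs over both groups, the smaller count was raised to 3 where it was lower, and the larger had to exceed 3. Since 3 UMIs are 18.6 CPM in the selected cells, a lower call was out of reach for genes under 4 times that level in neutrophils. With libraries 1 and 7 alone the split was 299 higher (7.37%) and 161 lower (3.97%) of 4058 genes, with 223 of the higher and 44 of the lower genes shared with the first comparison. With the 106 cells that lacked UMIs of S100a8, S100a9, Csf3r, Cxcr2 and Gata2, a set chosen partly on genes that mark neutrophils, it was 658 higher (11.2%) and 182 lower (3.1%) of 5864. Scaling by trimmed mean of M-values (TMM) moved all neutrophil ratios down by 0.41 on the log2 scale and gave 285 higher (4.72%) and 138 lower (2.29%). The genes of highest ratio were Serpinb2, Ear6, Ccl7, Il4, Retnla, Ikzf3, P2rx1, Ikzf2, C3ar1 and Zfp704. Ccl7 rested on 1 cell, which held 37 of its 38 UMIs. The lowest were Stfa2l1, Mmp8, Smox, D1Ertd622e, Slc2a6, Chil1, Mfsd6, Lrg1, Oas3 and Scnn1a. Stfa2l1 (a stefin), Mmp8 (neutrophil collagenase) and Lrg1 are known from neutrophils, and Mmp8 stood at 31.02 against 310.0.

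By role, lipid mediator enzymes held several of the genes called higher than in neutrophils. Of 11 eicosanoid genes compared, 4 were called higher and 0 lower, with a median log2 ratio of 1.25 against 0.37 over all genes, and the same 4 were called with libraries 1 and 7 alone, of 10 compared. Over all genes 8.18% were called higher. They were Lta4h (leukotriene hydrolase), which stood at 168 and 7.58-fold (4.48 to 12.6) above neutrophils, Tbxas1 (thromboxane synthase), at 168 and 7.06-fold (4.21 to 11.7), Pla2g4a (cytosolic phospholipase), at 155 and 20.6-fold (10.3 to 42.8), and Ptgs1 (a cyclooxygenase), at 99.3 and 7.08-fold (3.55 to 13.7). Alox5ap, the lipoxygenase activating protein, was the most abundant of the list at 1644 and Alox5 stood at 335. Ltc4s, the leukotriene synthase, gave 2 UMIs.

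Of the 24 transcription factors compared with neutrophils, 4 were called higher (Cebpe, Gata2, Id2 and Ikzf2) and Atf3 lower, beside 8.18% and 0.861% over all genes and around a median log2 ratio of 0.21. Id2, an inhibitor of helix-loop-helix factors, stood at 112 in library 1, 96.6 in library 2, 302 in library 3 and 1038 in library 7. Gata2 was not spread over the cells, since 17 of its 18 UMIs lay in a single cell of library 1. Gata1, the eosinophil lineage factor, gave 1 UMI in library 1 and 8 in library 7, with 0 in neutrophils. Junb stood at 9903 and Cebpb at 6639, the highest levels of the list.

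Receptor and adhesion lists were compared with neutrophils beside a background of 8.18% higher and 0.861% lower over all genes. Of 17 cytokine receptor genes compared, Il1rl1 alone was called, and Csf2rb, the common beta chain of the interleukin 3, interleukin 5 and GM-CSF receptors, stood at 428 against 447 in neutrophils and 1178 in basophils or mast cells. Of 12 chemoattractant receptors, C3ar1 (the receptor for a complement anaphylatoxin) and P2ry10 were called higher and Fpr1 (the formyl peptide receptor) lower. C3ar1 stood at 118 against 1.08 in neutrophils and Fpr1 at 31.02 against 126. Cxcr4, the marrow-homing receptor, was the most abundant of the list at 1545. Of 20 inhibitory and paired receptors, 0 were called higher and Cd33 was called lower. Of 16 adhesion genes, Cd24a and Adgre1 (a macrophage and eosinophil surface receptor) were called higher. With libraries 1 and 7 alone Tnfrsf1a, Tnfrsf1b, Fpr2, Sirpb1c and Fcgr4 were among the further genes called lower, and Itgax was called higher. Adgre1 stood at 354 against 57.1 in neutrophils and 129 in alveolar macrophages, and Itgam, an integrin alpha chain, at 1179 against 557 and 15.4.

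The background over all genes in the comparison with neutrophils was 8.18% higher and 0.861% lower, or 7.37% and 3.97% with libraries 1 and 7 alone. Of the oxidase subunits, Cybb, the membrane chain of the phagocyte NADPH oxidase, was called higher than in neutrophils, at 1569.8 against 109 (14.3-fold, 11.9 to 17.3), and the other 5 were not called. Alveolar macrophages held Cybb at 1851. Of the interferon-stimulated genes, 2 of 14 were called lower than in neutrophils (Ifitm6 and Rsad2), with a list median log2 ratio of -1.56, and 8 of 12 with libraries 1 and 7 alone, where the list median was -2.50. Their sum in the selected cells was 2405, 5892, 5129 and 1255 in libraries 1, 2, 3 and 7. Stx3, a syntaxin of vesicle fusion, was the 1 gene of 16 in the cytoskeleton and granule release list that was called higher, and of 14 survival genes and 21 activation genes 0 were called in either direction. With libraries 1 and 7 alone 2 of 19 activation genes, Cd274 and Il1b, were called lower.

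Against the 70 basophils or mast cells, taken by at least 2 UMIs over Mcpt8 and Ms4a2 and deeper at a median of 4238 UMIs, 316 of 4244 genes were called higher in the selected cells (7.45%) and 301 lower (7.09%). Libraries 1 and 7 alone gave 269 higher (9.46%) and 268 lower (9.42%) of 2845. TMM scaling, which lowered all ratios by 0.20 on the log2 scale, gave 270 higher (6.36%) and 389 lower (9.17%), so the larger side of the split changed. Highest were Il1rn, Retnla, Rflnb, Pla2g7, Gapt, Cd300lf, Cybb, Cebpe, Cd24a and Cd300ld, and lowest were Il6, Mcpt2, Gzmb, Cpa3, Fcer1a, Cd200r3, Lat2, Bgn, Col3a1 and Mfap4. Inhibitory and paired receptors had 10 of 16 higher and 0 lower and a list median log2 ratio of 2.84 against 0.14 over all genes. Siglece stood at 323 against 2.50, Clec12a at 285 against 14.98, and Pirb at 316 against 42.4. Libraries 1 and 7 alone gave 9 of 15 higher. Neutrophil markers were also higher than in basophils or mast cells, in 6 of 7 with a list median log2 ratio of 3.46, and in 4 of 6 with libraries 1 and 7 alone. The receptor list summed to 7347 CPM in the selected cells, 4635 in basophils or mast cells and 9076 in neutrophils, and the part of neutrophil transcripts in this difference was not tested. Basophil and mast cell markers were lower in 6 of 7. Cpa3, mast cell carboxypeptidase, gave 1 UMI in the selected cells against 721 CPM, and Fcer1a, the IgE receptor alpha chain, gave 3. Chemokines were lower in 4 of 6 (Ccl3, Ccl4, Ccl9 and Ccl17) and higher in 1 (Cxcl2), and lower in 3 of 5 and higher in 0 with libraries 1 and 7 alone. Il6 gave 1 UMI in the selected cells against 2014 CPM. Class II antigen presentation genes were lower in 4 of 6, but in 0 of 3 with libraries 1 and 7 alone, and collagen and other stromal genes were lower in 5 of 5. In basophils or mast cells the fibroblast or smooth muscle list summed to 1918, 3151, 21.3 and 0 CPM in libraries 1, 2, 3 and 7. The stromal calls, Col3a1 included, thus rest mainly on libraries 1 and 2. The part of other cells' RNA in them was not tested. Genes of the rule were not confined to the selected cells. Of the 70 basophils or mast cells, 40 held an Alox15 UMI, 15 a Siglecf UMI, 10 a Ccr3 UMI and 0 a Prg2 UMI. Thinned to 400 UMIs, 9 of them held Alox15, 1 held Siglecf and 1 held Ccr3.

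Against 1972 alveolar macrophages, another lung cell known to carry Siglecf, 692 of 12218 genes were called higher in the selected cells (5.66%) and 331 lower (2.71%), and libraries 1 and 7 alone gave 723 (6.81%) and 282 (2.66%) of 10611. TMM scaling, with a shift of 0.18 on the log2 scale, gave 607 higher (4.97%) and 425 lower (3.48%). Highest were Il4, Serpinb2, Cebpe, Serpina11, P2rx1, Ikzf3, F5, Rflnb, Il1rl1 and Tesc, and lowest were Plet1, Axl, Mt1, Hebp1, Mrc1, Atp6v0d2, Lyz2, Ctss, S100a1 and Fabp5. Siglecf itself stood at 409.5 in the selected cells and 131 in alveolar macrophages. As a gene of the rule it had helped to choose the selected cells but not the alveolar macrophages, so these levels are a description only. Of the alveolar macrophage markers compared, 9 of 10 were lower, and the 14-gene list summed to 2978 in the selected cells against 44586, with Chil3 the most abundant and Cidec at 0 beside the 3 excluded genes. Class II genes were lower in 5 of 7. Cd74, the invariant chain, stood at 124 against 1540.3 and H2-Aa at 93.1 against 704. The class II list in alveolar macrophages summed to 9403, 1335, 2123 and 1123 in libraries 1, 2, 3 and 7, so library 1 raised its pooled level. In the selected cells it summed to 615, 869, 302 and 415. Activation and NF-kB genes were higher in 10 of 22 and lower in 0, with a median log2 ratio of 1.65 against 0 over all genes. Neutrophil markers were higher in the same comparison in 7 of 8, S100a8, S100a9 and Retnlg among them, with a list median log2 ratio of 5.55, and in 7 of 8 with libraries 1 and 7 alone. The activation list summed to 21971 CPM in the selected cells, 2502 in alveolar macrophages and 33652 in neutrophils, and the part of neutrophil transcripts in these counts was not tested. Chemoattractant receptors were higher in 8 of 17 and lower in 1, adhesion genes higher in 6 of 17, and inhibitory receptors higher in 9 of 20. With libraries 1 and 7 alone chemoattractant receptors were higher in 9 and lower in 3 of 16, and inhibitory receptors higher in 6 and lower in 1 of 20.

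Ctsl, the cysteine protease cathepsin L that the study follows into emphysema, was rare in these cells. The gene lies at chr13:64359337-64370890 on the minus strand. It gave 18 UMIs in 11 cells, or 112 (66.2 to 177) CPM. Of these UMIs, 11 lay in the 34 cells taken on 1 UMI of Ccr3 alone, at 270 (135 to 483) CPM. The 63 cells with Ccr3 and another rule gene held 2, at 36.1 (4.37 to 130), and the 51 cells without Ccr3 held 5. Library 1 held 0 UMIs (3 would be 168), library 2 held 6 (289.8), library 3 held 0 and library 7 held 12 (113, 58.5 to 198). The level was 101 in neutrophils, 172 in basophils or mast cells and 395 in alveolar macrophages, where it was 3.53-fold higher and missed the 4-fold limit over all 166 cells, but passed it with libraries 1 and 7 alone. After thinning, 5.07% (2.06 to 10.2) of eosinophils held a Ctsl UMI, against 3.37% (2.25 to 4.84) of neutrophils, 13.6% (12.1 to 15.2) of alveolar macrophages and 0.978% (0.548 to 1.61) of B cells. Eosinophils overlapped neutrophils in these intervals but not alveolar macrophages or B cells. At this depth a difference from neutrophils was not detectable. The study recognised its eosinophil clusters by genes that include C1qa and Ctsl. The rule used here removed every barcode with a C1qa UMI and every barcode that reached the upper UMI limit. Cells with C1qa were therefore left out, and no library could be assigned to emphysema. The study's claim for Ctsl, which also rests on protein data, was not tested. The Ctsl level moved with the selection, to 398 with no upper UMI limit, 274 with up to 1 UMI of the excluded genes allowed, and 42.5 with at least 2 UMIs of Ccr3 or 3 over the other rule genes.

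Other cathepsins ran in both directions. Against alveolar macrophages, 6 of 12 cathepsin and cystatin genes were called lower and 0 higher (median log2 ratio -1.95), beside 2.71% lower over all genes, and 8 of 12 were lower with libraries 1 and 7 alone. Ctsd stood at 912 against 5497 and Ctss at 143 against 2954. Against neutrophils, Ctsh, Ctsk and Lgmn were called higher of 13, beside 8.18% over all genes, and with libraries 1 and 7 alone Ctsh was higher and Stfa1 lower of 12. Ctsh stood at 392 in library 1, 193 in library 2, 0 in library 3 and 491 in library 7, against 74.9 in neutrophils. Cst3, the inhibitor cystatin C, was the most abundant of the list at 1005. Of 11 matrix protease and inhibitor genes compared with neutrophils, Adam19 and Mmp12 were called higher and Mmp8 lower, and with libraries 1 and 7 alone Adam19 was higher and Mmp8, Mmp9 and Slpi lower of 10. Adam19 stood at 428 against 71.2 in neutrophils. Mmp12, the macrophage elastase, gave 10 UMIs, and Mmp9, the gelatinase of granulocytes, stood at 745 against 2144 in neutrophils.

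**Figure D4:**
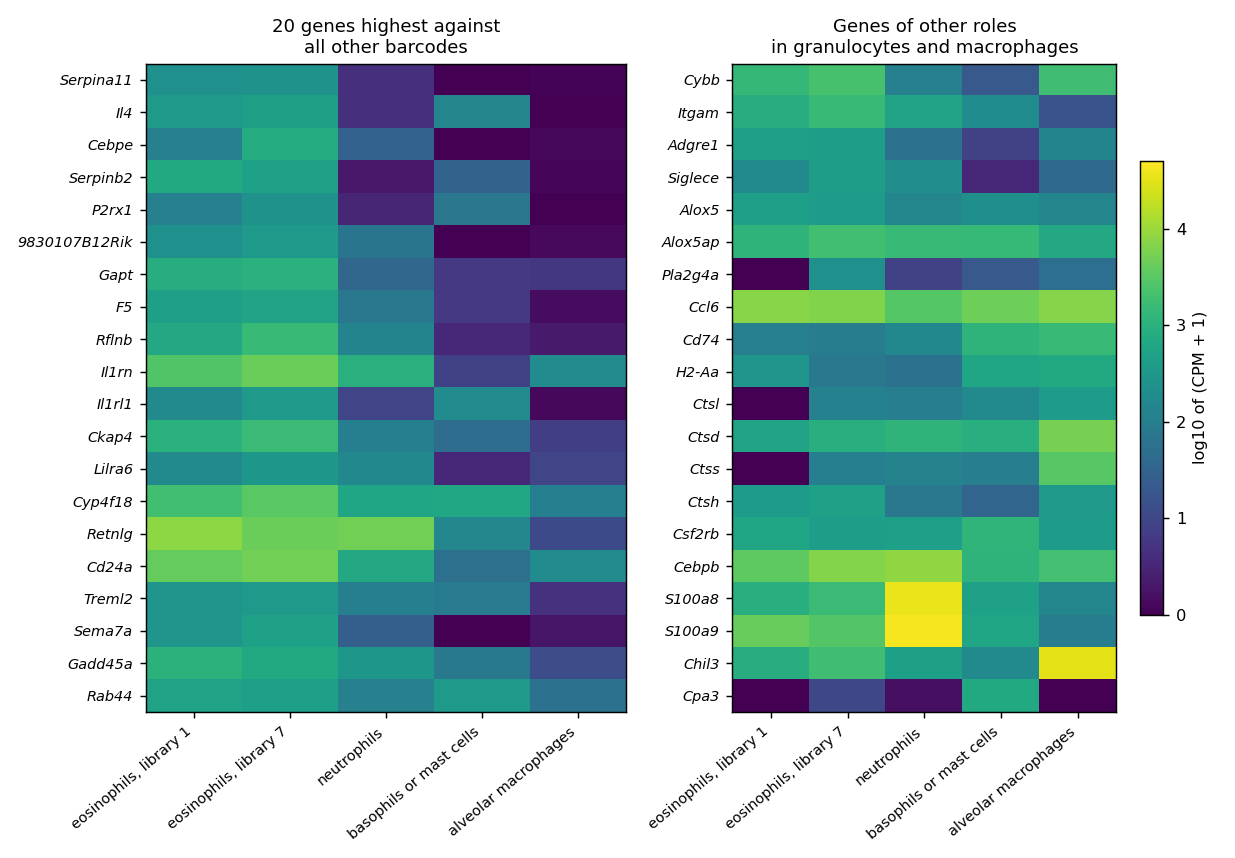
Heat map of log10(CPM + 1) (colour) for 40 genes (rows) in eosinophils of library 1 and of library 7, neutrophils, basophils or mast cells, and alveolar macrophages (columns). Serpinb2, Serpina11 and Cebpe were higher in eosinophils of library 7 than in the other 3 cell types and Il4 was shared with basophils or mast cells, whereas Ccl6, Alox5ap and Cybb were shared with other cell types and Cd74, Ctsd and Ctss were highest in alveolar macrophages.

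The most abundant transcripts, leaving out mitochondrial and ribosomal protein genes, were Tmsb4x (22623), Actb (16666), Malat1 (14395), Junb (9903), Dusp1 (8755), Il1b (8228), Actg1 (8091), S100a9 (7347), Cebpb (6639) and Fth1 (6422). This order is over all 166 cells and differs between libraries. Of the 1184 S100a9 UMIs, 599 and 218 came from the 17 cells of libraries 2 and 3, as did 364 and 473 of the 1326 Il1b UMIs. In library 7 Ccl6 (6415), Retnla (5641), Cd24a (4943) and Il1rn (4490.4) stood above Il1b (3887) and S100a9 (2773). Il1b, the inflammatory cytokine, stood at 4307 in library 1, 17579 in library 2, 28539 in library 3 and 3887 in library 7, with 68 of the 77 UMIs of library 1 in a single cell, and was far lower, at 981, in the 106 cells without UMIs of the 5 genes named above, with 19823 in neutrophils. Ccl6, a chemokine of resting eosinophils and macrophages, stood at 5473 against 2845 in neutrophils, 4533 in basophils or mast cells and 7111 in alveolar macrophages. Chil3 stood at 1644 against 32551 in alveolar macrophages.

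Libraries 1 and 7 were also compared with each other. Of 1167 genes compared, 4 were at least 4-fold higher in library 7 (0.343%) and 7 at least 4-fold higher in library 1 (0.6%). Library 7 was higher in Id2, by 9.28-fold (2.51 to 77.6), in Cebpe, by 7.25-fold (1.95 to 60.8), in Syne1, by 6.24-fold (1.67 to 52.5), and in Arhgef1, by 4.05-fold (1.33 to 20.1). In library 1 these rested on 2, 2, 2 and 3 UMIs, against 110, 86, 74 and 72 in library 7. Library 1 was higher in Gm12840, a predicted gene, by 85.97-fold (21.7 to 744) on 29 against 2 UMIs, in Ccl4, by 12.9-fold (8.17 to 20.7), and in Ccl3, by 7.80-fold (5.69 to 10.7), both chemokines of inflammation. It was also higher in Ier3, by 7.18-fold (3.74 to 13.9), Osm (oncostatin M), by 5.63-fold (2.84 to 11.1), Leprotl1, by 4.66-fold (1.91 to 11.05), and Cxcl2, a neutrophil-attracting chemokine, by 4.37-fold (3.54 to 5.39). Most of the genes higher in library 1 rested on the cell with 17 Gata2 UMIs described above, which held all 63 Ccl4, 89 of 96 Ccl3, 28 of 29 Gm12840, 20 of 23 Ier3 and 15 of 19 Osm UMIs. Without that cell, 2 of 1150 genes were called higher in library 7 (0.174%), Id2 by 15.4-fold (2.71 to 615) on 110 against 1 UMI and Cebpe by 6.04-fold (1.62 to 50.6) on 86 against 2 UMIs, both calls made with the library 1 count raised to 3, and 3 higher in library 1 (0.261%), Cxcl2 by 5.25-fold, Leprotl1 by 4.58-fold and Slk by 4.01-fold. Ccl3 then stood 1.46-fold (0.676 to 3.77) higher in library 7, Ccl4 was at 0 UMIs in library 1, and Syne1 and Arhgef1 held 2 UMIs each there and were not called. With the 106 cells that lacked UMIs of S100a8, S100a9, Csf3r, Cxcr2 and Gata2, 2 of 657 genes were called higher in library 7 (0.304%), Id2, again on 1 UMI in library 1, and Arpc1b, and 2 higher in library 1 (0.304%), Cxcl2 and Ccrl2, while Cebpe, on 2 UMIs in library 1, and Leprotl1 were no longer called. Ppp2r5a, Rgs2, Gpi1, Atp2b1 and Arl4c, next in order in favour of library 7, and Dnaja1, Rpl11 and Ifitm1, next in favour of library 1, stayed under 4-fold with all cells, while Spp1 (osteopontin) rested on 1 UMI in library 1 and was not called once that count was raised to 3. Il4 gave 1.38-fold (0.589 to 3.93), an interval that includes no difference. Il1rn gave 1.67-fold (1.24 to 2.30), Cd24a 1.30-fold (1.01 to 1.70) and Retnla 2.02-fold (1.51 to 2.75) in favour of library 7, and Retnlg 1.84-fold (1.52 to 2.22) in favour of library 1. Without the Gata2 cell Il1rn gave 1.39-fold (1.03 to 1.91), Cd24a 1.08-fold (0.839 to 1.41) and Retnla 1.68-fold (1.26 to 2.29), and among the 106 cells Il1rn gave 1.11-fold (0.809 to 1.54), Cd24a 0.922-fold (0.705 to 1.22) and Retnla 1.36-fold (1.01 to 1.86), where the intervals of Il1rn and Cd24a include no difference. The 24 cells of library 1 held 17879 UMIs and those of library 7 held 106005, and the condition of neither is known.

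**Figure D5:**
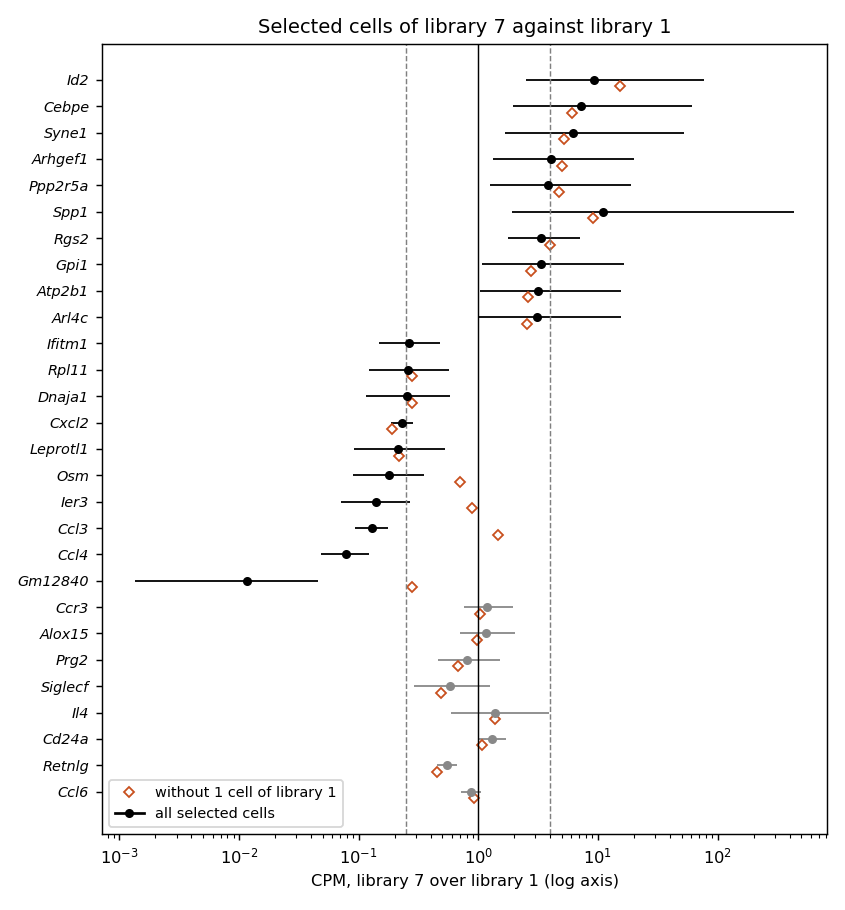
Ratio of CPM in library 7 to those in library 1 (horizontal axis, log scale) for 28 genes (rows); points are ratios over all selected cells, lines their exact 95% intervals of counting error, diamonds the ratios without the library 1 cell that held 17 Gata2 UMIs (none drawn where library 1 then held 0 UMIs), black the genes at the ends of the order and grey 8 others. Id2 and Cebpe lay above 1 and Cxcl2 below it with and without that cell, whereas Ccl3 crossed 1. The rule's own Ccr3, Alox15, Prg2 and Siglecf are drawn as a description only.

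RNA of other lung cells was low but present. The basophil or mast cell list of 10 genes summed to 1210.0 CPM with 5 genes detected, led by Hdc (1049), and Prss34, Mcpt4 and Cma1 at 0 beside the 2 excluded genes. The sum in libraries 1, 2, 3 and 7 was 2069, 2656, 3017 and 499.98. In library 1, 32 of the 37 UMIs behind it lay in the Gata2 cell, and without that cell the sum was 336. Neutrophils held Hdc at 2834 and this list at 2845, and basophils or mast cells held Hdc at 2259. Hdc therefore does not mark RNA of basophils or mast cells alone. Epithelial genes summed to 1098 with 4 of 6 detected, led by Scgb1a1, the club cell secretoglobin, at 856 against 1565 in neutrophils, and Epcam and Foxj1 at 0. The serous cavity macrophage list summed to 571, of which F5 gave 422, and Gata6 was at 0. The C1q macrophage list summed to 229.6, led by Apoe, the endothelial list to 254, the B or plasma cell list to 211, the monocyte list to 179.9, and the erythroid or platelet list to 86.9. By library the endothelial sum was 0, 1256, 60.3 and 132 in libraries 1, 2, 3 and 7, so library 2 raised it. Fibroblast or smooth muscle, dendritic, natural killer and T cell or ILC2 genes summed to 68.3, 31.02, 18.6 and 12.4. A list of 14 genes that the study names for its eosinophils, chosen on these samples, left out others it names, such as Ctsk, Dnase2a and Atp6v0a1. Of the 14, 10 were detected, led by Fcer1g (1353). Ccr3, Prg2 and Alox15 were among the 10 and had chosen the cells, so their detection is no result. C3ar1 was the 1 of 5 called against neutrophils, higher, beside 8.18% over all genes. The excluded genes C1qa and Ms4a2 are 0 by the rule, and Rnase2a and Ms4a7 were at 0 as measured. The part of other cells' RNA in the levels above was not tested.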

How the data were processed

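The authors deposited a single gene-by-barcode matrix of UMI counts for 7 numbered libraries, made with Cell Ranger 3.1.0 per the file header and, per the submitters' processing notes, STAR and mm10, with reads down-sampled when libraries were aggregated. The labels name version 3 of the kit and the supplementary methods version 2. Columns without a sample numbered 0, since the matrix was treated as 1 pooled sample. The other 9 labelled samples were not analysed here. Of 31053 gene IDs, 31011 were found in GENCODE M21 (GRCm38), and 35 symbols occurred more than once.

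UMIs were summed over the cells of a group with Python 3.11.15, numpy 2.4.6, scipy 1.17.1 and pandas 2.3.3. Levels carry exact Poisson intervals, shares exact binomial (Clopper-Pearson) intervals, and ratios exact conditional binomial intervals, all at 95%. A count of 0 allows up to 3 UMIs. A gene was called at 4-fold or more with at least 20 UMIs over both groups. TMM factors came from edgeR 4.0.16 in R 4.3.3. On simulated counts for members against neutrophils, 96.5% of intervals over 6034 genes held the true ratio, and 100 of 100 genes raised and 99 of 100 lowered 8-fold were called, with 2 of 5834 unchanged genes. The changed genes were drawn from those with counts well above the minimum of 20 UMIs, and no spread between cells was simulated. The simulation therefore does not cover changed genes near that minimum or UMIs that pile up in single cells.

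No doublet caller was run, and only the UMI limit and the excluded genes act on doublets. Genes were named by rule: the 20 highest against all other barcodes, the 10 most abundant, the 10 highest and lowest of each comparison and of library 7 against library 1, and genes of 34 lists, of which 380 of 381 genes were found. Some results are not reported here. The members and lists were chosen with earlier results of these data known. Alternatives were other limits, scalings, libraries and cells.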

Additional observations from a re-analysis of the deposited data

Results flagged for a closer look

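Libraries 4, 5 and 6 were left out of the selection by their library number. Each of their barcodes also held more UMIs than the upper limit of the rule. Ccr3 was nevertheless above the level that a count of 0 allows in all 3. Library 4 held 7 Ccr3 UMIs in 7 cells, or 0.236 (0.0948 to 0.486) CPM against an allowance of 0.101. Library 5 held 28 UMIs in 16 cells, with 6 in a single cell, or 0.858 (0.570 to 1.24) against 0.0920. Library 6 held 11 UMIs in 9 cells, or 0.355 (0.177 to 0.636) against 0.0969. Alox15 gave 4, 60 and 8 UMIs in libraries 4, 5 and 6, and Siglecf 20, 23 and 25, while Epx and Ear6 were at 0 in all 3 and Prg2 gave 1 UMI in library 4. The source of these UMIs was not tested.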

How the results depend on the processing

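Of 106 alternatives over 8 results, 81 left the value within its limit and 25 moved it. With no upper UMI limit there were 305 cells, of which 55.1% were in library 7 and 70.2% held another eosinophil gene, Ctsl stood at 398 CPM and 1064 genes were called against basophils or mast cells. The stricter rule (2 UMIs of Ccr3 or 3 over the other 3 genes) left 83 cells, 84.3% in library 7, with Ctsl at 42.5, and allowing 1 UMI of an excluded gene put Ctsl at 274. Some alternatives left the total of calls within its limit but moved its split. Against neutrophils, no upper UMI limit gave 467 higher and 351 lower, and the stricter rule 636 higher and 164 lower. Against alveolar macrophages, no upper UMI limit gave 643 higher and 93 lower. A mitochondrial limit of 5% left 99 cells, and a floor of 500 UMIs raised the share with another eosinophil gene to 64.8%. A minimum of 50 UMIs gave 217 calls against neutrophils and 352 against basophils or mast cells, and no filter 1023 and 930. Chosen after the data were seen, libraries 1 and 7 alone put 83.9% of cells in library 7. Removing cells with UMIs of S100a8, S100a9, Csf3r, Cxcr2 or Gata2 left 106 cells, 840 calls against neutrophils and 4 between libraries 7 and 1, and removing only the library 1 cell with most Gata2 left 5.

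Leaving out each library in turn gave 41 cells (without library 7) to 158 (without library 3), a share in library 7 of 79.1% to 88.0% with no value without that library, another eosinophil gene in 53.8% to 56.3%, Ctsl at 85.4 to 126, and 165 to 523 calls against neutrophils, 286 to 588 against basophils or mast cells and 636 to 1009 against alveolar macrophages, the lowest of each being without library 7. The causes were not tested, though a smaller set of cells holds fewer UMIs to call from. No paired analysis was possible because the barcodes carry no sample, so replicate numbers in the labels match no column.

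Depth limits most statements. The 166 cells held 161164 UMIs in all, so 3 UMIs equal 18.6 CPM, and a gene under 4 times that level in the other group could not be called lower. Library 1, with 24 cells, gives wide intervals, and 1 deep cell can set a value there. Intervals cover counting error only and say nothing of the spread between mice.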
